A study of Rattus norvegicus with 9 samples.

Results

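Small RNA was sequenced from cultured rat cartilage progenitor cells, and 10 of the 726 miRNA rows of the deposited table were followed here because they are known mainly from blood, liver and muscle. The rows were taken by name: rno-miR-451-5p, rno-miR-486, rno-miR-142-5p, rno-miR-142-3p and rno-miR-150-5p for blood, rno-miR-122-5p for liver, and rno-miR-1b, rno-miR-1-3p, rno-miR-133a-3p and rno-miR-206-3p for muscle. All 10 had reads in each of the 9 libraries and all 10 passed the filter on low counts. The cells were wild-type primary cultures from condylar cartilage. The 3 groups, of 3 libraries each, were cells grown to passage 3 (P3, the control), cells grown to passage 9 (P9, the replicative senescence group) and passage 3 cells exposed to flow fluid shear stress (FFSS). The labels give neither the age, sex or strain of the rats, nor the medium, nor the strength and length of the shear, nor whether replicates came from separate cultures. The p-values therefore reflect the spread among libraries within groups, and that spread may be technical. In the main test the 3 groups shared their estimate of that spread.

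Each of these miRNAs is made at a high level by a few cell types. miR-451 is abundant in red cells and their precursors and is cut from its hairpin by Argonaute 2 in place of Dicer, so it has a single dominant arm. miR-486 is made in red cell precursors and also in muscle, miR-142 in nearly all blood cells, and miR-150 in mature lymphocytes. miR-122 is the dominant miRNA of hepatocytes. miR-1 and miR-133a are transcribed together in heart and skeletal muscle, and miR-206 is a skeletal muscle miRNA. Because such miRNAs are stable and leave damaged cells, they are also found in plasma and serum, and their mature sequences are largely shared among mammals, so that reads of this length seldom tell one species from another.

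Of the 10 members, 8 had a mature sequence in the RefSeq table used here (build GRCr8), and miR-486 and miR-150-5p did not. The sequences are shown because the rows can only be read with their likeness in mind. Capitals mark the seed, bases 2 to 8 from the 5′ end, which pairs with target transcripts.
miR-1b: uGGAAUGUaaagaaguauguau
miR-1-3p: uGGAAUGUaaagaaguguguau
miR-206-3p: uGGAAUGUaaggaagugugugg
miR-133a-3p: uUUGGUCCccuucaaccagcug
miR-133c: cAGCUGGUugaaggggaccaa
miR-122-5p: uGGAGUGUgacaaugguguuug
miR-451-5p: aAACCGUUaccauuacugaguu
miR-142-5p: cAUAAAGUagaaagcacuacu
miR-142-3p: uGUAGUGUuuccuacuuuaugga
miR-1b, miR-1-3p and miR-206-3p share 1 seed. Counted from the 5′ end, with the base of miR-1b first, miR-1-3p differs from miR-1b by A17G alone. miR-206-3p differs from miR-1b by A11G, A17G, A21G and U22G. A read with 1 mismatch can therefore belong to either of the first pair, and no source used here states how the authors' counting treated mismatches.

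By the same RefSeq table miR-1b lies at chr3:187864736-187864757 on the plus strand. miR-1-3p lies at chr18:2160339-2160360 and miR-133a-3p at chr18:2157886-2157907, both on the minus strand, 2431 bases apart and within the span of the gene Mib1. miR-133c, a row of the table that is not among the 10, is annotated on the opposite strand of the miR-133a site, and its 21 bases are the reverse complement of bases in miR-133a-3p. The counts of miR-133a-3p and miR-133c were equal in 8 of 9 libraries and differed by 1 read in the other, so their reads cannot be told apart. The same held for miR-1-3p and the row miR-3571, equal in 8 of 9 libraries with a largest difference of 1 read. The count of the row miR-122b was 77.3% to 95.5% of that of miR-122-5p, and whether these rows share reads was not tested.

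Library totals ran from 7522702 to 8862560 reads in P3, from 7614513 to 8177357 in P9 and from 2878910 to 7082142 in FFSS. FFSS replicates 1 and 3 were the shallow ones, at 2878910 and 3896403 reads, or 0.363 and 0.491 of the mean of the other 7. Levels are given as CPM, read counts scaled to the library total. The cartilage miRNAs miR-140-5p, miR-140-3p, miR-455-5p and miR-455-3p checked the labelled tissue: they summed to 4150 to 7370 CPM in P3, 2590 to 3847 in P9 and 6077 to 7202 in FFSS. The 10 blood, liver and muscle miRNAs together made up between 0.023% and 0.119% of the reads of a library. In a bulk sample, fewer cells of a type and less RNA per cell cannot be told apart.

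The red cell miRNAs were among the most abundant of the set and varied widely within each group. miR-451-5p had 62.2, 85.2 and 24.5 CPM in P3 replicates 1, 2 and 3. In P9 it had 34.5, 122.8 and 117.4 CPM, and in FFSS 276.1, 63.8 and 180.2 CPM. P3 replicate 3 was the lowest library of the 9 and FFSS replicate 1 the highest, and the groups overlapped. miR-486 had 67.4, 64.9 and 44.9 CPM in P3, 30.99, 170.7 and 181.5 CPM in P9, and 296.3, 90.2 and 187.4 CPM in FFSS. P9 replicate 1 was lowest for miR-486, and P9 replicates 2 and 3 stood together above P3 for both miRNAs. Within P9 the highest library exceeded the lowest by 3.55 times for miR-451-5p and by 5.86 times for miR-486.

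The white cell miRNAs were scarce. miR-142-5p had 5.23, 5.45 and 3.84 CPM in P3, 2.23, 5.21 and 7.95 CPM in P9, and 16.3, 10.3 and 17.2 CPM in FFSS. These values rest on 17 to 73 reads per library, and every FFSS library lay above every P3 and every P9 library. Its partner arm miR-142-3p had only 4 to 21 reads per library, with 0.951, 0.665 and 2.37 CPM in P3, 1.18, 1.65 and 0.489 CPM in P9, and 2.43, 2.4004 and 4.11 CPM in FFSS. The lowest FFSS value, FFSS replicate 2 at 2.4004 CPM (exact Poisson 95% interval 1.398 to 3.84), and the highest P3 value, P3 replicate 3 at 2.37 CPM (1.47 to 3.62), are not distinct within counting error. miR-150-5p had 4.04, 3.72 and 3.84 CPM in P3, 3.68, 3.30 and 3.67 CPM in P9, and 11.1, 4.24 and 9.50 CPM in FFSS. The P9 and P3 libraries of miR-150-5p did not overlap, yet their means, 3.55 ± 0.213 and 3.87 ± 0.162 CPM (SD, n = 3), differed by less than the counting interval of any 1 of these libraries, such as 2.16 to 4.84 CPM for P9 replicate 2.

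The liver miRNA separated P9 replicate 3 from the other P9 libraries. miR-122-5p had 9.87, 11.7 and 10.2 CPM in P3 and 3.94, 3.43 and 22.9 CPM in P9. In FFSS it had 51.4, 15.5 and 30.5 CPM, all above P3. P9 replicates 1 and 2 were below every P3 library and P9 replicate 3 was above them all, so the P9 mean of 10.1 ± 11.1 CPM was close to the P3 mean of 10.6 ± 0.984 CPM (SD, n = 3) while describing none of the 3 libraries. The excess of P9 replicate 3 over the higher of the other P9 libraries was 5.80 times, the fifth largest of the 439 miRNAs tested.

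Of the muscle miRNAs, miR-1b and miR-133a-3p were nearly level in P3 and in P9 replicates 1 and 2, and P9 replicate 3 stood apart again. miR-1b had 115.7, 124.7 and 111.6 CPM in P3, 125.6, 123.7 and 461.9 CPM in P9, and 457.1, 157.3 and 229.4 CPM in FFSS. Leaving out P9 replicate 3, every P3 and P9 library lay between 111.6 and 125.6 CPM. miR-133a-3p, with miR-133c, followed it at 9.15, 8.24 and 10.8 CPM in P3, 10.9, 8.39 and 40.4 CPM in P9, and 28.5, 11.4 and 19.8 CPM in FFSS. P9 replicate 3 exceeded the higher of the other P9 libraries by 3.68 times for miR-1b and 3.70 times for miR-133a-3p. These values ranked 13 and 12 among 439 miRNAs, of which 40 (9.11%) had an excess of at least 2 times in that library.

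The remaining muscle rows had a smaller excess in P9 replicate 3, or none. miR-1-3p, with miR-3571, had 8.20, 12.5 and 7.33 CPM in P3, 11.7, 10.4 and 20.7 CPM in P9, and 26.1, 9.04 and 14.9 CPM in FFSS. P9 replicate 3 was again its highest P9 library, with an excess of 1.77 times that ranked 52 among 439 miRNAs. miR-206-3p had 11.3, 12.2 and 10.3 CPM in P3, 18.4, 8.01 and 9.78 CPM in P9, and 26.1, 11.2 and 16.7 CPM in FFSS. P9 replicate 1, and not replicate 3, was its highest P9 library.

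**Figure D1:**
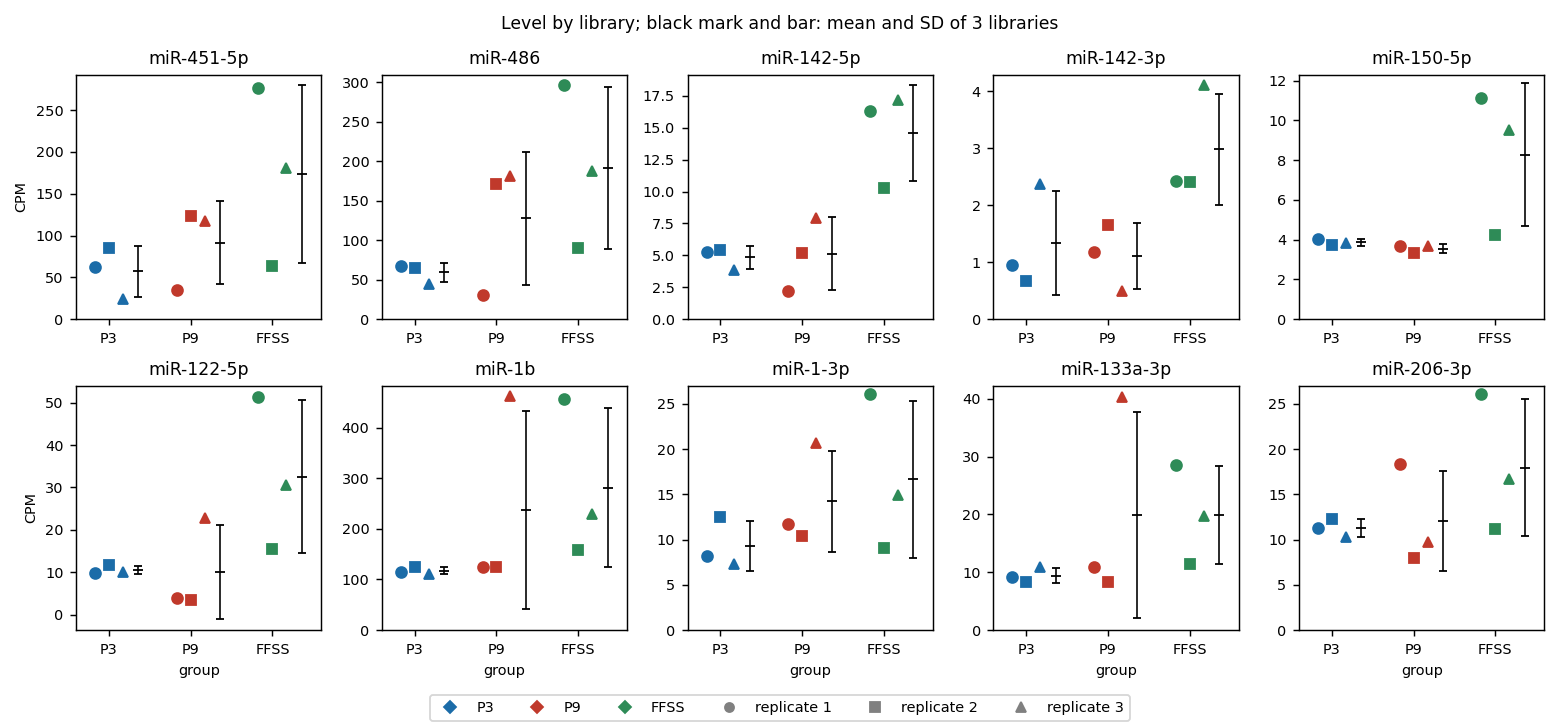
Level of each of the 10 miRNAs in CPM (y axis) in the 9 libraries by group (x axis), with marker shape for the replicate, and the mean and SD of 3 libraries in black. FFSS replicate 1 was the highest library for 6 of the 10 (16.4% of the 439 tested miRNAs), FFSS replicate 3 for the 2 arms of miR-142 (18.7%), and P9 replicate 3 for miR-1b and miR-133a-3p (10.5%).

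Summed by tissue of origin, the 4 muscle miRNAs made up 144.3, 157.7 and 140.03 CPM in P3, 166.5, 150.5 and 532.7 CPM in P9, and 537.7, 188.9 and 280.8 CPM in FFSS. The 2 red cell miRNAs made up 129.6, 150.1 and 69.4 CPM in P3, 65.5, 293.5 and 298.9 CPM in P9, and 572.4, 154.0 and 367.5 CPM in FFSS. The libraries high for one tissue were thus not always high for another: P9 replicate 2 was above P3 by a wide margin for the red cell miRNAs alone, while P9 replicate 3 was high for the red cell, muscle and liver miRNAs. The 3 white cell miRNAs made up 9.84 to 10.2 CPM in P3, 7.09 to 12.1 CPM in P9 and 16.9 to 30.8 CPM in FFSS.

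Read counts, in place of levels, were set beside the library totals. For the 4 muscle miRNAs and miR-150-5p the counts varied less than the totals, with P9 replicate 3 left out for the muscle miRNAs. Without P9 replicate 3, the totals of the 8 libraries spanned 3.08 times. That span comes from FFSS replicates 1 and 3, both shear-stressed, so depth and shear cannot be told apart in it. Over the same 8 libraries miR-1b ran from 894 to 1316 reads (1.47 times), miR-133a-3p from 62 to 96 (1.55 times), miR-1-3p from 58 to 94 (1.62 times) and miR-206-3p from 63 to 140 (2.22 times). miR-150-5p ran from 26 to 37 reads over all 9 libraries (1.42 times). The remaining members spanned more than the totals over the 8 libraries: miR-486 5.69 times, miR-122-5p 5.48, miR-451-5p 4.45, miR-142-5p 4.29 and miR-142-3p 4.2. With P9 replicate 3 included, miR-1b spanned 4.22 times, miR-133a-3p 5.32, miR-1-3p 2.91 and miR-206-3p 2.22.

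In FFSS replicate 1, the shallowest library, miR-1b had 1316 reads, against 973, 938 and 989 in P3. In FFSS replicates 2 and 3 it had 1114 and 894. miR-133a-3p had 82, 81 and 77 reads in FFSS replicates 1, 2 and 3, against 77, 62 and 96 in P3. The higher CPM of miR-133a-3p in FFSS replicates 1 and 3 therefore came with counts inside the P3 range and smaller totals. For miR-1b the counts of FFSS replicates 1 and 2 were above those of P3, while that of replicate 3 was below. The FFSS counts of miR-142-5p, 47, 73 and 67, were above those of P3, at 44, 41 and 34, though 47 and 44 are close. miR-122-5p was also higher in counts, with 148, 110 and 119 reads in FFSS against 83, 88 and 90 in P3.

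**Figure D2:**
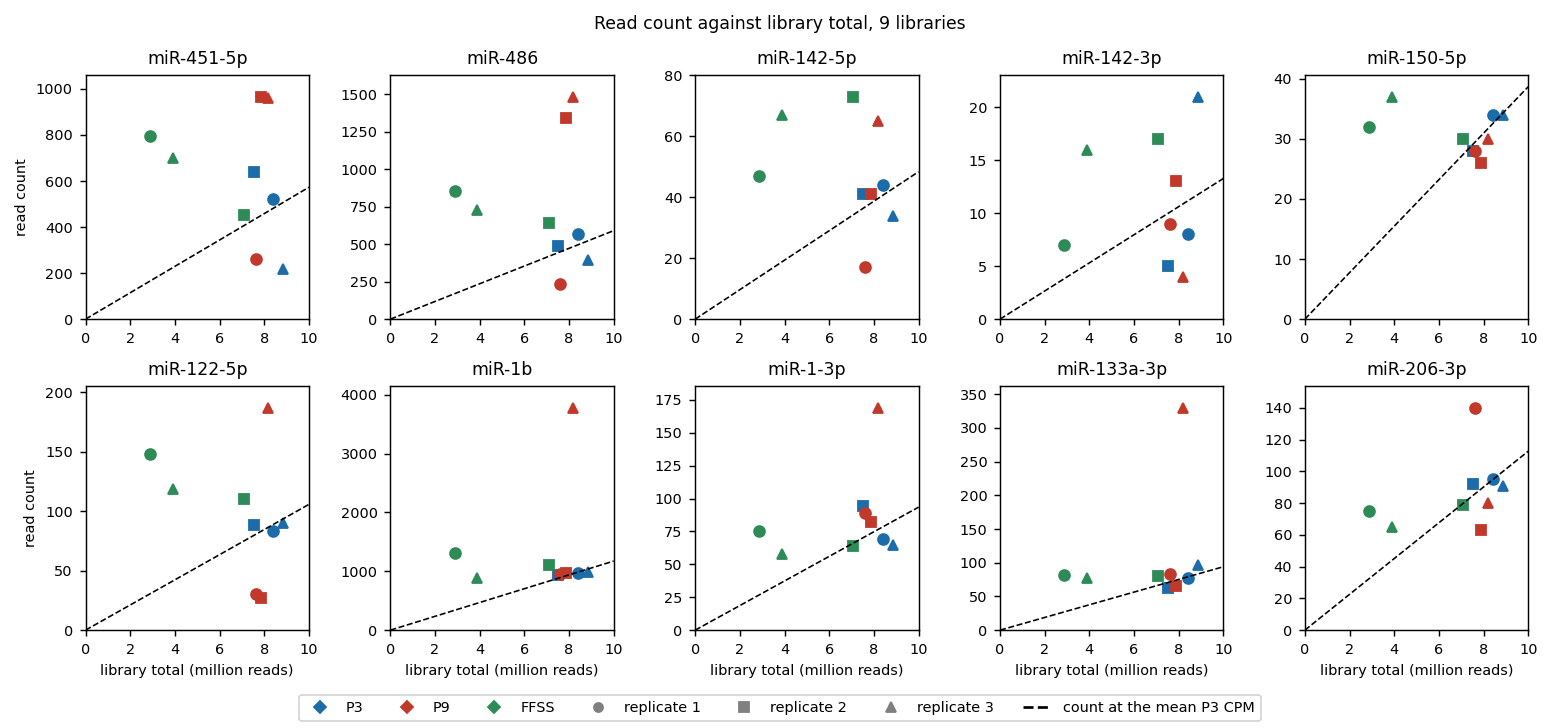
Read count (y axis, from 0) against library total (x axis) for each miRNA in the 9 libraries, with the dashed line at the count that the mean P3 CPM would give. FFSS replicates 1 and 3, the leftmost points, lie above the line for all 10 miRNAs, and the counts of miR-150-5p stay between 26 and 37 along the whole axis.

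A coefficient of variation (CV, SD over mean) across libraries put this on 1 scale for every miRNA. Where reads follow depth, scaling to CPM lowers the CV. For 101 of the 375 miRNAs averaging 20 counts or more (26.9%), the CV of counts was lower than that of CPM. Of the 9 members above that minimum (miR-142-3p was below it), the CV of counts was lower for 7 of 9, and for 9 of 9 without P9 replicate 3, where the share of all 375 was 28.5%. miR-150-5p had a CV of 0.114 in counts and 0.557 in CPM. Its variance over mean of 0.403 was the lowest of the 375, and only 3 miRNAs had a value under 2, where 1 is the value of pure counting noise around a constant count. Without P9 replicate 3 the CV in counts and CPM was 0.133 and 0.654 for miR-1b, 0.135 and 0.531 for miR-133a-3p, and 0.172 and 0.479 for miR-1-3p.

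A further measure was the mean count of FFSS replicates 1 and 3 over that of the other 7 libraries, P9 replicate 3 included. The totals gave 0.427 and the median of the 375 miRNAs 0.456. The median of the 9 members was 1.07, and 5 of the 9 were at 1 or above, against 38 of 375 (10.1%). The 5 were miR-122-5p (1.52), miR-451-5p (1.30), miR-142-5p (1.27), miR-150-5p (1.15) and miR-486 (1.07). Apart from miR-150-5p these were not the members with the narrowest count ranges. The muscle miRNAs were below 1, at 0.796 for miR-1b, 0.766 for miR-206-3p, 0.737 for miR-1-3p and 0.700 for miR-133a-3p. The high count of miR-1b in P9 replicate 3, 3777 reads, is part of its denominator. Both shallow libraries are shear-stressed, so depth and shear cannot be told apart in them. The count ranges, the CVs and these mean counts all draw on those libraries and are not separate evidence. These measures were chosen after the counts had been seen and are given as descriptions.

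**Figure D3:**
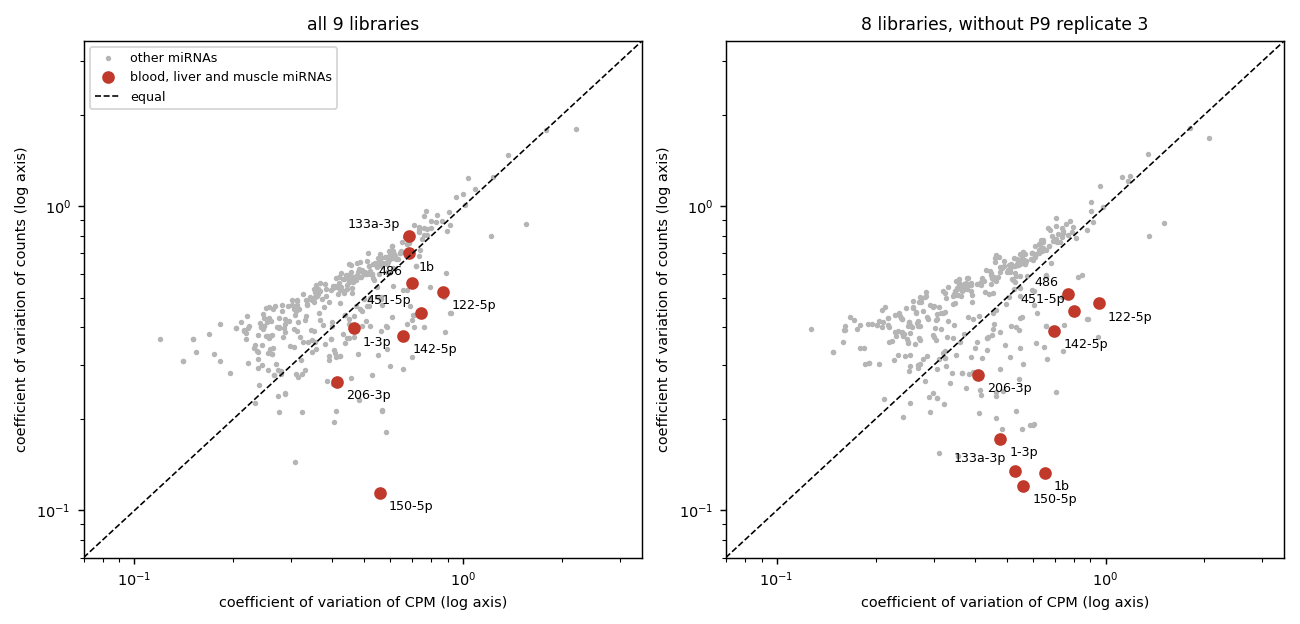
CV of counts (y axis, log scale) against CV of CPM (x axis, log scale) for 375 miRNAs, the 9 measured members in red, over 9 libraries (left) and without P9 replicate 3 (right); the dashed line marks equal values. All 9 members lie below the line on the right, and miR-1b (0.700 against 0.684) and miR-133a-3p (0.798 against 0.682) lie above it on the left.

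FFSS replicate 2, at 7082142 reads, is the shear library of a depth near that of P3. There the levels over the P3 mean were 0.967 times for miR-1-3p, 0.990 for miR-206-3p, 1.095 for miR-150-5p, 1.11 for miR-451-5p, 1.22 for miR-133a-3p, 1.34 for miR-1b, 1.47 for miR-122-5p, 1.53 for miR-486, 1.81 for miR-142-3p and 2.13 for miR-142-5p. In FFSS replicate 1 the same ratios ran from 1.83 (miR-142-3p) to 5.02 (miR-486), and in FFSS replicate 3 from 1.48 (miR-206-3p) to 3.55 (miR-142-5p). The size of the difference from P3 was thus smaller in the deep shear library than in the shallow ones for all 10, with miR-142-3p nearly equal in FFSS replicates 2 and 1 (1.81 and 1.83).

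Under shear stress, 1 of the 10 miRNAs passed the test against P3. miR-142-5p rose from 4.84 ± 0.875 to 14.6 ± 3.75 CPM (SD, n = 3; edgeR log2 fold change 1.53, SE 0.49, adjusted p = 0.0437 over 439 miRNAs). Of all 439 miRNAs, 6.83% were called higher in FFSS. The call was lost without any 1 of the P3 or FFSS libraries or without P9 replicate 2 (adjusted p 0.0502 to 0.166), while the log2 fold change in those fits stayed between 1.26 and 1.66. With FFSS replicate 2 as the only shear library the value of miR-142-5p was 1.02. That library is then assumed to vary like the other groups, and 0 of the 439 miRNAs were called, so the value is given with no test. The adjusted p over the other alternatives ran from 0.0110 to 0.166.

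The other 9 had positive values that did not pass. In edgeR these were 1.67 for miR-486 (adjusted p = 0.0678), 1.57 for miR-122-5p (0.121), 1.56 for miR-451-5p (0.0991), 1.24 for miR-1b (0.129) and 1.02 for miR-150-5p (0.0991). The values were 1.05 for miR-142-3p (adjusted p = 0.212), 1.03 for miR-133a-3p (0.222), 0.77 for miR-1-3p (0.261) and 0.63 for miR-206-3p (0.281) in the same edgeR test. The 10 had a median of 1.15, against 0.024 over all 439. An unadjusted edgeR p under 0.05 was seen for 6 of the 10 and for 159 of the 439. The FFSS libraries lay above all P3 libraries for 7 of the 10 (all but miR-451-5p, miR-1-3p and miR-206-3p), against 18.9% of the 439. All 10 were above every P3 library in both FFSS replicate 1 and FFSS replicate 3, against 29.6% of the 439.

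FFSS replicate 1 decided the size of several of these values. Without it the edgeR value was 0.097 for miR-1-3p, 0.067 for miR-206-3p, 0.48 for miR-133a-3p and 0.48 for miR-1b. It was 0.56 for miR-150-5p, 0.81 for miR-451-5p, 0.86 for miR-122-5p and 0.98 for miR-486, and 1.005 for miR-142-3p. All 10 kept a positive sign and none passed (edgeR adjusted p 0.110 to 0.923). Without FFSS replicate 2, the deep shear library, miR-150-5p was called (1.30, edgeR adjusted p = 0.0415). Leaving out P9 replicate 3, in neither group but part of the shared spread, 3 of the 10 were called. These were miR-142-5p (1.47, edgeR adjusted p = 0.0146), miR-122-5p (1.53, 0.0156) and miR-1b (1.21, 0.0269). The same fit called 147 of all miRNAs, against 90 with all libraries.

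At passage 9, 0 of the 10 passed against P3, where 7.29% of the 439 were called in either direction. With edgeR 0 of the 10 had an unadjusted p under 0.05, against 76 of the 439. DESeq2 and limma-voom also called 0 of the 10, against 46 and 32 of the 439. The values closest to the threshold were those of miR-486 (59.1 ± 12.3 to 127.7 ± 83.9 CPM; log2 fold change 1.25, SE 0.60, edgeR adjusted p = 0.312), miR-133a-3p (9.41 ± 1.31 to 19.9 ± 17.8 CPM; 1.18, SE 0.58, 0.323) and miR-1b (117.3 ± 6.70 to 237.0 ± 194.7 CPM; 1.12, SE 0.56, 0.323). The spread of P9 was far above that of P3 for all 3. Without P9 replicate 3 the edgeR value fell to 0.095 for miR-1b (adjusted p = 0.933) and to 0.038 for miR-133a-3p (0.986), and that of miR-122-5p went from 0.041 (0.989) to -1.51 (0.0664). The value of miR-122-5p was also negative with upper-quartile factors and with library size alone.

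Of the 10, 0 had all P9 libraries above P3 (11.2% of the 439) and 1, miR-150-5p, had all of them below (14.1%). The median value of the 10 was 0.43, against 0.062 over the 439. The values of the rest were 0.79 for miR-451-5p, 0.67 for miR-1-3p, 0.20 for miR-142-5p, 0.11 for miR-206-3p, -0.061 for miR-150-5p and -0.24 for miR-142-3p, with edgeR adjusted p between 0.532 and 0.968. Both comparisons use the same P3 libraries, so their values are set side by side and not combined.

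**Figure D4:**
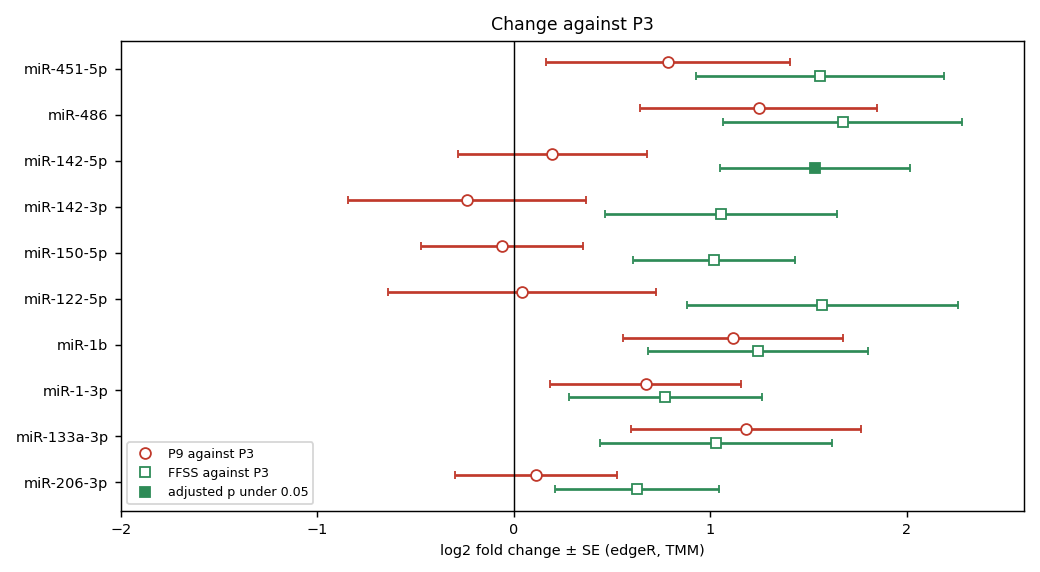
log2 fold change with its SE (x axis; edgeR) of the 10 miRNAs (y axis) for P9 (circles) and FFSS (squares) against P3, filled where the adjusted p was under 0.05. Only the FFSS value of miR-142-5p, 1.53, is filled.

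P9 and FFSS were also compared directly. miR-142-5p was lower in P9 than in FFSS (5.13 ± 2.86 against 14.6 ± 3.75 CPM; log2 fold change -1.34, SE 0.48, edgeR adjusted p = 0.0473), and 11.8% of the 439 were called lower in P9. This call was lost without any 1 of the 9 libraries except P9 replicate 3 (edgeR adjusted p 0.0567 to 0.194), with log2 fold changes of -1.46 to -0.87 in those fits. Without P9 replicate 3 the test called miR-122-5p as well (-3.05, adjusted p = 3.90e-04), against -1.53 (0.101) with all libraries.

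Ratios of counts within a library do not depend on scaling and showed which miRNAs kept together. miR-1b to miR-133a-3p was the steadiest of the 6 ratios examined. The P3 libraries had 12.6, 15.1 and 10.3, the P9 libraries 11.5, 14.7 and 11.4, and the FFSS libraries 16.0, 13.8 and 11.6. The highest value was 1.56 times the lowest, and P9 replicate 3, where both miRNAs were high, had 11.4. miR-486 to miR-451-5p was 1.08, 0.761 and 1.83 for P3, 0.897, 1.39 and 1.55 for P9, and 1.07, 1.41 and 1.04 for FFSS, a span of 2.41 times while the counts themselves spanned 6.29 and 4.45 times.

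Most of the other ratios moved more between libraries. miR-1b to miR-206-3p was 10.2, 10.2 and 10.9 in P3 and 6.83, 15.4 and 47.2 in P9. In P9 replicate 3 miR-1b was high, at 461.9 CPM, while miR-206-3p, at 9.78 CPM, was not. In FFSS this ratio was 17.5, 14.1 and 13.8. miR-1b to miR-1-3p was 14.1, 9.98 and 15.2 for P3, 10.7, 11.9 and 22.3 for P9, and 17.5, 17.4 and 15.4 for FFSS. Its span of 2.24 times was slightly below the 2.41 times of miR-486 to miR-451-5p. miR-122-5p to miR-451-5p spanned 14.8 times, from 0.0280 in P9 replicate 2 to 0.415 in P3 replicate 3. The arms of miR-142 had a 5p to 3p ratio of 1.62 to 16.3, with as few as 4 reads of the 3p arm behind it.

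The log2 ratios were compared with P3 by an exact two-sided permutation test, which cannot go below p = 0.10 with 3 libraries against 3. Of 12 comparisons, 2 reached that smallest value: miR-1b to miR-206-3p was higher in FFSS by 0.53 and miR-1b to miR-1-3p by 0.38 on the log2 scale (exact p = 0.10 each, Benjamini-Hochberg p = 0.60). The others had exact p of 0.40 to 1. The difference in the ratio of miR-1b to miR-133a-3p was -0.0044 in P9 and 0.13 in FFSS, below the SD of 0.28 between P3 libraries.

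**Figure D5:**
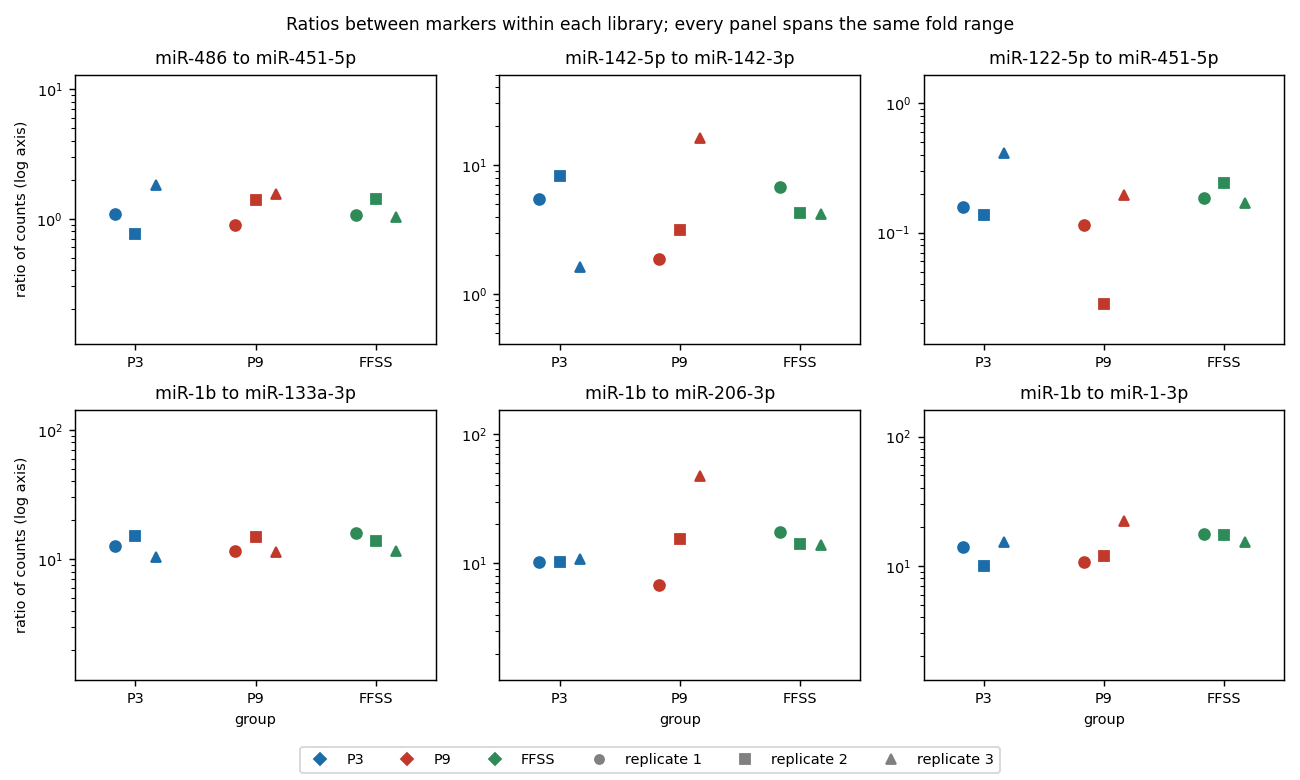
Ratio of read counts (y axis, log scale, the same fold range in each panel) for 6 pairs of miRNAs in the 9 libraries by group (x axis), with marker shape for the replicate. miR-1b to miR-133a-3p stays between 10.3 and 16.0, while miR-1b to miR-206-3p reaches 47.2 in P9 replicate 3.

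Other markers of the same tissues came from a wider list. Of 4 red cell rows, miR-144-5p and miR-144-3p, made from the same transcript as miR-451, had 0 to 4 and 0 to 2 reads per library, and miR-144-3p was at 0 in all P3 libraries. Of 6 white cell rows, miR-223-3p and miR-223-5p, the miRNA of granulocytes and monocytes, had 0 to 5 and 0 to 1 reads, and miR-150-3p 0 to 4. The summed white cell level was 10.2 to 11.3 CPM in P3, 7.49 to 12.1 CPM in P9 and 16.9 to 31.6 CPM in FFSS. The second arm of the liver hairpin, miR-122-3p, had 2 reads in P3 replicate 1 and 0 in the other 8 libraries.

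Of 13 muscle rows, 10 were in the table. The heart miRNA miR-208a-3p had 0 to 5 reads, miR-208b-3p 0 to 3, miR-133b-3p, made together with miR-206, 1 to 7, and miR-133a-5p 0 to 3. miR-499-5p, made from a slow myosin gene, was the other abundant muscle row, at 80.2 ± 10.9 CPM in P3, 61.96 ± 11.2 CPM in P9 and 71.7 ± 32.1 CPM in FFSS, with log2 fold changes of -0.33 and -0.22 (edgeR adjusted p = 0.727 and 0.671). Its counts ran from 106 to 709. miR-192-5p and miR-194-5p, expressed in liver and in gut, gave 0.19 and -0.20 in P9 and 0.39 and 0.099 in FFSS, and neither passed in edgeR (adjusted p 0.363 to 0.854). No row of the red cell, liver or muscle lists passed in either comparison with P3, and 1 of the white cell list, miR-142-5p, rose under shear.

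The epithelial and nervous system lists were read for comparison, and under shear 1 of 5 tested epithelial rows and 1 of 2 tested nervous system rows were called. miR-200b-3p, an epithelial miRNA, had 29 to 68 reads and was called in FFSS (4.01 ± 0.656 to 11.9 ± 6.89 CPM; log2 fold change 1.53, edgeR adjusted p = 0.0399), as was miR-9a-5p of neurons (40.0 ± 9.19 to 94.8 ± 35.7 CPM; 1.21, adjusted p = 0.0464). The other 4 epithelial rows, miR-200a-3p, miR-200c-3p, miR-203a-3p and miR-205, had values of 0.55 to 1.01 that did not pass (edgeR adjusted p 0.256 to 0.399), and the other nervous system row, miR-128-3p, had -0.12 (0.873). Both called miRNAs were among the miRNAs whose counts varied less than their CPM, with a CV of 0.291 against 0.655 for miR-200b-3p and 0.213 against 0.564 for miR-9a-5p. miR-205, a miRNA of stratified epithelium, had 62 to 114 reads in 8 libraries and 0 in P9 replicate 3. That is at least 22.5-fold lower than the lowest of the other 8, taking 3 reads as the limit that a count of 0 allows, 0.367 CPM. It was the single tested miRNA with 0 reads in 1 library and at least 20 in each of the others, and it was named after its values were seen.

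For miR-1b, miR-451-5p and miR-122-5p the 5 miRNAs of most similar pattern were listed by the Pearson correlation of log2(CPM + 1) over the 9 libraries, among 414 candidates averaging 10 counts or more. All correlations rest on the same 9 libraries and their differences in depth, so these are descriptions. miR-1b went with miR-133c and miR-133a-3p (r = 0.967 and 0.966), miR-184 (0.915), miR-1-3p (0.915) and miR-3571 (0.914). miR-451-5p went with miR-486 (0.934), miR-204-5p (0.836), miR-9a-5p and miR-9b-3p (0.833 each) and miR-142-5p (0.817). miR-122-5p went with miR-122b (0.997), miR-126a-3p (0.970), miR-211-5p (0.969), miR-363-3p (0.961) and miR-29c-5p (0.938).

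The endothelial miRNA in that last group, miR-126a-3p, had 387.4 ± 10.8 CPM in P3. Its P9 libraries had 284.1, 268.7 and 488.9 CPM and its FFSS libraries 686.4, 550.5 and 583.6 CPM, the order seen for miR-122-5p in P9 and the same highest library in FFSS. It passed neither comparison with P3 in edgeR (adjusted p = 0.955 and 0.192). Its other arm, miR-126a-5p, went the other way in P9, with 97, 50 and 13 reads in replicates 1, 2 and 3, and replicate 3 was its lowest library of the 9. The FFSS value of miR-126a-5p was 0.030 (edgeR adjusted p = 0.978). The part of endothelial or blood cells, of serum, or of transfer between libraries in the levels of the 10 miRNAs was not tested.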

How the data were processed

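Small RNA with inserts of 18 to 40 bp was sequenced from 9 libraries, per the labels' protocols. The authors deposited read counts for 726 miRNA rows, 91 of them predicted, per the file headers. The deposited TPM values equalled CPM, counts scaled to the library total, within 4.85e-05. Alignment with Bowtie and the build Rnor_6.0 come from the submitters' processing notes. For the counting program and miRNA release, nothing is given in the sources used here. Counts were tested with the edgeR 4.0.16 quasi-likelihood test (R 4.3.3, robust, TMM factors, filterByExpr, 439 rows kept) in 1 model of all 9 libraries, with Benjamini-Hochberg adjustment over the 439 and a threshold of 0.05. The SE is the log2 fold change divided by the root of its F statistic. Ratios had 0.5 added to each count for the log2 scale. Alternatives used limma 3.58.1, DESeq2 1.42.0, other scalings and filters, a replicate block and left-out libraries. Thinning to the smallest total, keeping FFSS replicate 2 alone, and the measures of counts against totals were added after seeing the data. Members, lists and the naming rule (the 10 rows, the tissue lists, and the 5 rows most alike) were chosen with earlier results of these data known. No 2 libraries held equal counts. Intervals and limits cover counting error only.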

Additional observations from a re-analysis of the deposited data

How the results depend on the processing

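Under every alternative 0 of the 10 miRNAs were called in P9 against P3. The count under shear stress (1) was 0 with TMM factors made without the 10 most abundant miRNAs, or with a mean of at least 50 counts, 3 with DESeq2, and 4 in a fit of P3 and FFSS only, and it ran from 0 to 3 with 1 library left out (3 without P9 replicate 3). For P9 against FFSS the count (1) was 2 with upper-quartile factors, library size alone, limma-voom, log2(TPM + 1) or thinned counts, 3 with DESeq2 and 4 on log2(TPM + 10). It was 0 without the 10 most abundant miRNAs, with no filter, with a mean of at least 50 counts, and in a fit of 2 groups, and 0 to 2 with 1 library left out (2 without P9 replicate 3). With FFSS replicate 2 alone both counts were 0, which tests little: the lone library is assumed to vary like the other groups, and of all 439 miRNAs 0 were called against P3 and 52 against P9. Over all miRNAs the number called, with filters that change how many were tested included, ran from 16 to 51 for P9 against P3 (32). With 1 library left out it ran from 36 to 147 under shear (90) and from 109 to 1.34 times the 151 for P9 against FFSS, each highest without P9 replicate 3. The cause was not tested, except that some fits hold fewer libraries.

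Same-numbered libraries did not deviate together (correlations of -0.50 to 0.13), which gave no ground for pairing them in the main test. Whether same-numbered libraries shared a culture was not tested. With the replicate block 0 of the 10 were called in each comparison, and 51 of all miRNAs under shear. The block value was -0.38 for miR-122-5p in P9 against P3 and -0.12 for miR-133a-3p in P9 against FFSS.

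Values that changed sign were none of them called. For P9 against P3, miR-122-5p was at -0.066 with upper-quartile factors and with library size alone, -0.57 with limma-voom, -0.52 on log2(TPM + 1), -0.17 on log2(TPM + 10) and -0.069 thinned. miR-142-5p was at -0.026 with limma-voom, -0.038 on log2(TPM + 1) and -0.023 thinned, and miR-206-3p at -0.0095 thinned. With FFSS replicate 2 alone, miR-1-3p was at -0.14 and miR-206-3p at -0.091 against P3. In P9 against that library, miR-451-5p was at 0.68, miR-486 at 0.67, miR-1b at 0.76, miR-1-3p at 0.79 and miR-206-3p at 0.19. For P9 against FFSS, miR-1-3p was at 0.017 with no filter, 0.0050 with limma-voom and 0.066 thinned. There miR-133a-3p was at -0.031 with upper-quartile factors, which move the median of all miRNAs by -0.11, and at -0.12 with limma-voom, -0.24 on log2(TPM + 1) and -0.11 on log2(TPM + 10). With 5 added to each count the ratio of miR-1b to miR-133a-3p, P9 minus P3, was 0.013.

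With 1 library left out, P9 against P3 ran from -1.51 to 0.50 for miR-122-5p, -0.65 to 0.54 for miR-142-3p, -0.33 to 0.54 for miR-142-5p, -0.13 to 0.00027 for miR-150-5p and -0.25 to 0.35 for miR-206-3p. P9 against FFSS ran from -0.49 to 0.60 for miR-1-3p, -0.94 to 0.74 for miR-133a-3p, -1.12 to 0.67 for miR-1b, -0.76 to 0.072 for miR-206-3p and -0.79 to 0.27 for miR-486. The log2 ratios, P9 minus P3, ran from -0.74 to 0.75 for miR-142-5p to miR-142-3p, -0.19 to 0.34 for miR-1b to miR-1-3p, -0.14 to 0.13 for miR-1b to miR-133a-3p, -0.023 to 1.37 for miR-1b to miR-206-3p and -0.18 to 0.45 for miR-486 to miR-451-5p. For FFSS minus P3 they ran from -0.38 to 0.42 for miR-122-5p to miR-451-5p, -0.40 to 0.72 for miR-142-5p to miR-142-3p, -0.014 to 0.26 for miR-1b to miR-133a-3p and -0.28 to 0.36 for miR-486 to miR-451-5p. Counts of 4 to 73 reads limit both arms of miR-142.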

Other observations

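The miR-200 family are epithelial miRNAs that hold back the transition to a mesenchymal state. Its members miR-200c-3p and miR-200a-3p also had counts that varied less than the library totals. miR-200c-3p had 35 to 53 reads in the 9 libraries, with a variance over mean of 0.967, the second lowest of 375 miRNAs after miR-150-5p. miR-200a-3p had 25 to 54 reads, with a variance over mean of 1.91, the third lowest. miR-499-5p, made in slow muscle, differed from miR-1b. Its mean count in FFSS replicates 1 and 3 was 0.347 of that in the other 7 libraries, against 0.427 for the totals and 0.796 for miR-1b. The other 7 include P9 replicate 3, where miR-1b had 3777 reads. miR-499-5p had 106, 709 and 305 reads in FFSS replicates 1, 2 and 3, and 709 was its highest count of the 9 libraries.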
